A study of Mus musculus with 6 samples.

Results

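The genes of the proteasome and of its direct regulators were followed through RNA sequencing of DN3 thymocytes, the developing T cells that lack CD4 and CD8 and carry low CD44 and high CD25. Members were the gene symbols that start with Psma to Psmg followed by a number and that held at least 60 counts over the 6 libraries. Of the 24015 symbols listed, 50 met this rule, and all 50 carried enough counts to be among the 12939 genes tested. One of them, Psmc3ip, shares only its name with the others, since it encodes a factor of meiotic recombination. The remaining members were the alpha and beta subunits of the 20S core, the subunits of the 19S base and lid, the 3 immunoproteasome subunits, 5 activator genes, 1 inhibitor and 7 assembly chaperones. A pair of core subunits known from testis (Psma8) and thymic epithelium (Psmb11) was kept apart.

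The proteasome is the protease complex that degrades proteins tagged with ubiquitin. Its barrel-shaped core holds the catalytic sites inside rings of beta subunits, and rings of alpha subunits gate the entrance. The 19S particle binds, deubiquitinates and unfolds substrates, with a base of ATPases and a lid around it. Under interferon the catalytic subunits Psmb5, Psmb6 and Psmb7 can be replaced by Psmb8, Psmb9 and Psmb10, which changes the peptides made for MHC class I.

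The 6 libraries fell into 3 genotypes with 2 libraries each. Control cells were wild type. The p45-/- cells lacked the long forms of the HMG-box factor Tcf1, the product of Tcf7. The Lck-cre+ Tcf1 fl/fl cells, called Tcf1-deficient here, carry a floxed gene and Lck-Cre, a recombinase under a promoter of T-lineage cells that was meant to remove every form of Tcf1, while the p45-/- mutation is not described as limited to a cell type. The sources used here give neither the age of the mice nor the animal each library came from. The p-values therefore rest on the spread between libraries, part of which may be technical.

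Library totals ran from 19640524 to 28107031 counts. Levels are given as CPM, the count of a gene scaled to the size of its library. Tcf7 stood at 2088 and 1810 CPM in control, 2340 and 2414 CPM in p45-/- and 979 and 976 CPM in Tcf1-deficient libraries. Both Tcf1-deficient libraries lay below both controls, with transcripts still counted. Counts per gene neither separate its isoforms nor measure loss of the protein. Defining markers of DN3 cells summed to 6954 CPM in Tcf1-deficient replicate 1 and to between 9223 and 10051 CPM in the other libraries. Markers of later T cells summed to 1209 CPM in that replicate and to between 517 and 707 CPM elsewhere. Tcf1-deficient replicate 1 also stood apart in interferon response genes. Their 19 listed members summed to 2167 CPM there and to between 719 and 1069 CPM elsewhere. These are sorted bulk samples, so fewer cells of a kind and less RNA per cell cannot be told apart.

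In control DN3 cells the 31 subunits of the 26S proteasome were all expressed. Per kilobase of transcript they spanned 28.7 CPM for Psmd11 to 174 CPM for Psmb3, with a median of 88.5 CPM. Of the immunoproteasome subunits, Psmb8 reached 267 CPM per kilobase, above every 26S subunit, while Psmb10 and Psmb9 stood at 79.5 and 57.5 CPM per kilobase. Among the activators, Psme1 reached 195 CPM per kilobase and Psme4 11.6 CPM per kilobase. The assembly chaperones spanned 9.77 to 46.7 CPM per kilobase, with Psmd5 the lowest and Psmg4 the highest. Psma8 and Psmb11 stayed at 0.39 to 2.57 CPM in all 6 libraries, with 8 to 48 counts of Psma8 and 26 to 70 counts of Psmb11 per library.

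**Figure D1:**
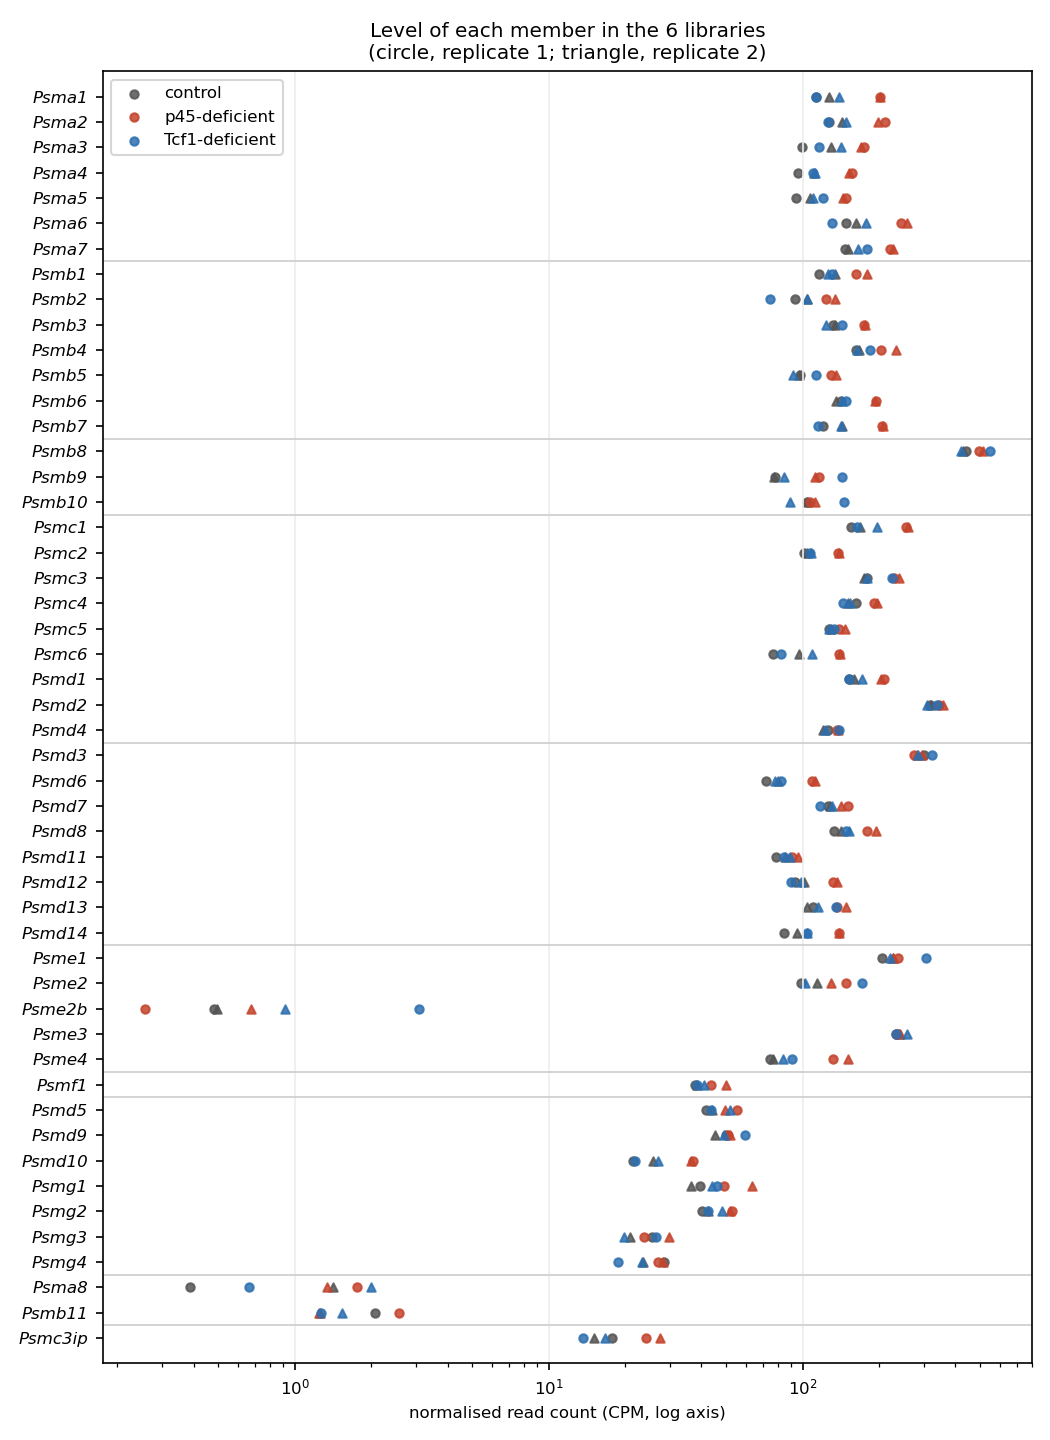
Level of each of the 50 members in every library, as CPM on a log axis, sorted by role and separated by lines; circles are replicate 1 and triangles replicate 2. Red points (p45-/-) lie to the right of the grey control points for most subunits, Psmb8 is the most abundant member at 421 to 546 CPM, and Psme2b, Psma8 and Psmb11 lie near 1 CPM.

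The comparison of p45-/- with control cells asks what DN3 cells gain or lose when only the long Tcf1 isoforms are missing. Proteasome genes rose across the core, base, lid, chaperones and 1 activator, by 1.35-fold to 1.88-fold, and no member fell. The summed level of the 31 subunits of the 26S particle was 4086 and 4286 CPM in control and 5549 and 5699 CPM in p45-/- libraries. The members took 0.593% and 0.596% of all counts in control libraries and 0.715% and 0.725% in p45-/- libraries. By edgeR's quasi-likelihood test with Benjamini-Hochberg adjustment over all genes, 19 of the 50 members were higher and 0 were lower, where 8.47% of tested genes were higher and 7.55% were lower. DESeq2 called 25 members higher and 0 lower, among them all 19 of edgeR's, and edgeR gave 30 members (60%) an unadjusted p below 0.05, none of them lower, where 4367 of all genes (33.8%) had one. In 42 members both p45-/- libraries lay above both controls, as in 37.9% of tested genes. The median log2 fold change was 0.41 over the members and 0.05 over all tested genes. With library totals as the scale, the median of all genes was −0.06 and that of the members 0.31, and 11 members were called.

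These calls needed both libraries of each group. Without control replicate 1 or p45-/- replicate 2, 0 members were called, and without control replicate 2 or p45-/- replicate 1, only Psme4 was. Without Tcf1-deficient replicate 1 or 2, which enter through the shared estimate of spread and the scaling, 29 and 32 were called. All 19 called members were positive in all 14 alternative fits. Exons of 8 members (Psma4, Psmb7, Psmb9, Psmc3, Psmc3ip, Psmd1, Psmd13 and Psme1) overlap another listed gene on the other strand, and 17 calls were left without these.

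**Figure D2:**
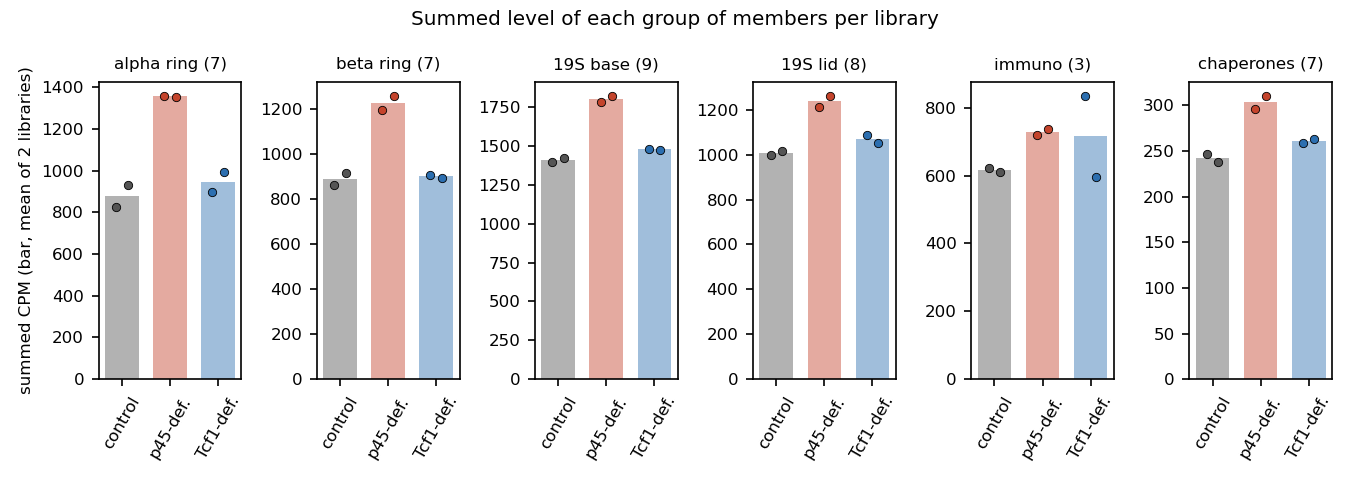
Summed CPM of each role in every library (points), with the mean of the 2 libraries of a genotype as a bar that starts at 0; the number of genes is in each title. The alpha ring goes from 824 and 930 CPM in control to 1359 and 1353 CPM in p45-/- libraries, and the immunoproteasome panel shows Tcf1-deficient replicate 1 at 836 CPM beside 595 CPM in replicate 2.

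All 7 alpha-ring genes of the core rose in p45-/- cells, with a median log2 fold change of 0.60. Psma1 went from 113 and 127 CPM in control to 201 and 202 CPM in p45-/- libraries, a 1.68-fold rise (log2 fold change 0.75, adjusted p = 0.0150 by edgeR, SE 0.14). Psma6 went from 148 and 162 CPM to 244 and 258 CPM (log2 fold change 0.69, adjusted p = 0.0297 by edgeR, SE 0.16). Psma7 went from 147 and 151 CPM to 221 and 227 CPM, with a log2 fold change of 0.59. For each of these genes the lowest p45-/- library lay clear of the highest control. Psma2, Psma3, Psma4 and Psma5 rose by 0.60, 0.60, 0.58 and 0.54 on the log2 scale, with adjusted p-values by edgeR between 0.0210 and 0.0463. Exons of Psma4 overlap AY074887 on the other strand, and the strand setting of the counts is not given in the sources used here.

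In the beta ring 2 of 7 constitutive genes rose, both of them catalytic. Psmb7, the trypsin-like subunit, went from 120 and 143 CPM to 206 and 208 CPM (log2 fold change 0.65, adjusted p = 0.0278 by edgeR, SE 0.15), with exons that overlap Nek6 on the other strand. Psmb6, the caspase-like subunit, went from 142 and 135 CPM to 195 and 193 CPM, with a log2 fold change of 0.49 and an adjusted p of 0.0264 by edgeR. Psmb5, the chymotrypsin-like subunit, stood at 98.2 and 96.8 CPM in control and 130 and 135 CPM in p45-/- libraries, and missed the threshold (log2 fold change 0.44, adjusted p = 0.0595 by edgeR, SE 0.13). The median over the 7 genes was 0.44, both p45-/- libraries lay above both controls for all 7, and DESeq2 called 6 of them.

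In the 19S base 3 of 9 genes rose, all from the ring of ATPases that unfold substrates. Psmc1 went from 155 and 169 CPM to 256 and 261 CPM (log2 fold change 0.67, adjusted p = 0.0167 by edgeR, SE 0.13). Psmc6 went from 76.6 and 96.7 CPM to 139 and 140 CPM, with a log2 fold change of 0.69 and an adjusted p of 0.0386 by edgeR. Psmc2 went from 101 and 104 CPM to 138 and 139 CPM, with a log2 fold change of 0.43. The other 3 ATPase genes and the 3 base genes that are not ATPases were not called. The scaffold gene Psmd1 had 153 and 159 CPM in control and 210 and 204 CPM in p45-/- libraries. It narrowly missed the threshold by edgeR (adjusted p = 0.0533) and was called by DESeq2 (adjusted p = 0.0402). Psmd2, the most abundant of the 3, had 317 and 320 CPM in control and 344 and 357 CPM in p45-/- libraries, and the ubiquitin receptor Psmd4 had 126 and 120 CPM against 136 and 138 CPM.

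In the lid 4 of 8 genes rose. Psmd14, the deubiquitinase that strips ubiquitin from substrates, went from 84.3 and 95.2 CPM to 139 CPM in each p45-/- library (log2 fold change 0.63, adjusted p = 0.0149 by edgeR, SE 0.11). Psmd6, Psmd12 and Psmd8, structural subunits around it, rose by 0.53, 0.47 and 0.44 on the log2 scale. The other lid genes were not called. Psmd3 stood at 302 and 281 CPM in control and 275 and 296 CPM in p45-/- libraries, which overlap, and Psmd11 at 78.5 and 85.3 CPM against 90.5 and 96.0 CPM. In all, 16 of the 31 genes of the 26S particle were called and 30 of 31 had a positive log2 fold change.

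**Figure D3:**
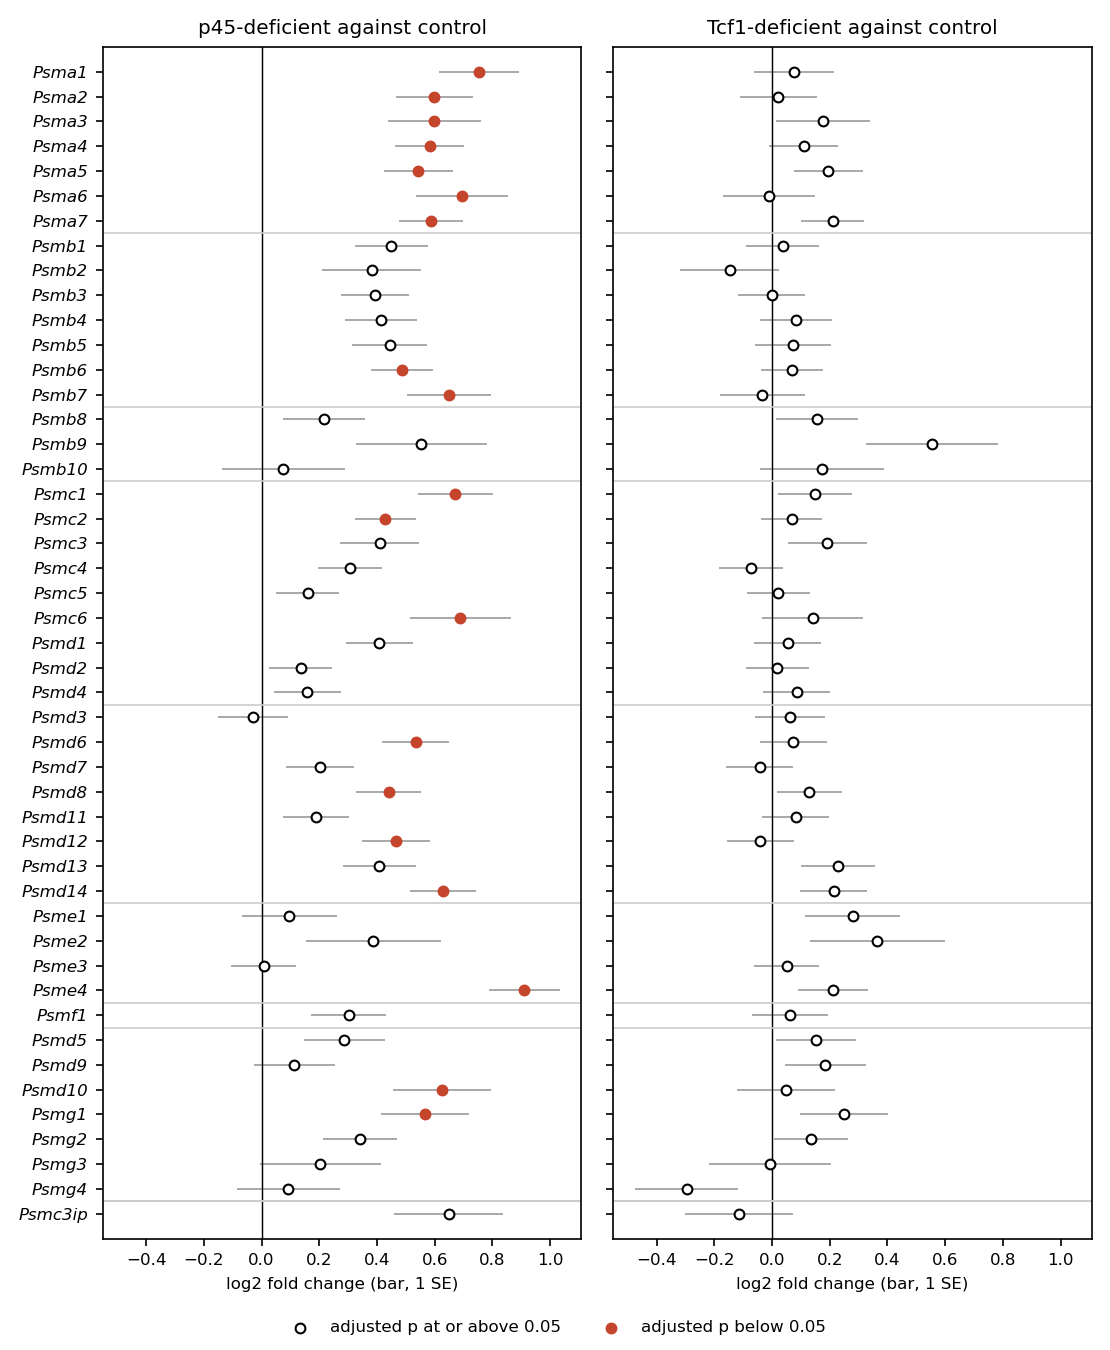
Log2 fold change of 47 members (point) with 1 SE (bar) in p45-/- and in Tcf1-deficient cells against the same 2 control libraries; filled points passed an adjusted p of 0.05 by edgeR, and Psme2b, Psma8 and Psmb11 are left out because of their low counts. The left panel holds 19 filled points, led by Psme4 at 0.91, and the right panel holds none.

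The largest rise of any member was in Psme4, which encodes the activator PA200, a single large protein that caps the core without ATP. It went from 74.4 and 76.6 CPM in control to 132 and 152 CPM in p45-/- libraries, a 1.88-fold rise (log2 fold change 0.91, adjusted p = 0.00599 by edgeR, SE 0.12). The adjusted p ranged from 1.98e-07 to 0.0602 over the alternatives, and the gene was called in 12 of 14. The other activators were not called. Psme3, the nuclear activator, stood at 235 and 239 CPM in control and 234 and 243 CPM in p45-/- libraries (log2 fold change 0.01, adjusted p = 0.972 by edgeR, SE 0.11). Psme1 and Psme2, which form the interferon-inducible activator, had log2 fold changes of 0.10 (SE 0.16) and 0.39 (SE 0.23) and were not called. Psme2b, a near copy of Psme2 at 0.26 to 0.67 CPM in control and p45-/- libraries, had the lowest value, −0.10 (SE 0.82), and reads of the near-identical genes may not be separated. The inhibitor Psmf1 stood at 37.6 and 38.3 CPM against 43.6 and 49.9 CPM, with a log2 fold change of 0.30 (SE 0.13) that was not called.

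Of the 7 assembly chaperones 2 rose. Psmg1, which helps to build the alpha ring, went from 39.4 and 36.3 CPM to 49.3 and 63.0 CPM (log2 fold change 0.57, adjusted p = 0.0466 by edgeR, SE 0.15). Psmd10, a chaperone of the base, went from 21.5 and 25.9 CPM to 36.9 and 36.2 CPM, with a log2 fold change of 0.63 and an adjusted p of 0.0472 by edgeR. Both lay close to the threshold. Psmg2, the partner of Psmg1, was not called, with both p45-/- libraries (52.8 and 51.6 CPM) above both controls. Psmg4 stood at 28.4 and 23.4 CPM against 27.1 and 28.2 CPM.

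The 3 immunoproteasome genes did not pass the test in p45-/- cells, although both p45-/- libraries lay above both controls for each. Psmb8 stood at 440 and 429 CPM in control and 497 and 513 CPM in p45-/- libraries (log2 fold change 0.22, adjusted p = 0.321 by edgeR, SE 0.14). Psmb9 stood at 78.2 and 77.2 CPM against 116 and 112 CPM (log2 fold change 0.55, adjusted p = 0.139 by edgeR, SE 0.23), and its exons overlap Tap1 on the other strand. Psmb10 stood at 104 CPM in both controls and at 107 and 112 CPM in p45-/- libraries, with a log2 fold change of 0.08. Psmb9 was called in the fit of these 2 groups alone, with an adjusted p of 0.00760 by edgeR, and without either Tcf1-deficient library.

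The balance between each immunoproteasome subunit and the constitutive subunit it replaces was read within each library, as the log2 ratio of their CPM after adding 0.5. For Psmb8 to Psmb5 it was 2.16 and 2.14 in control, 1.93 and 1.92 in p45-/- and 2.27 and 2.19 in Tcf1-deficient libraries. The p45-/- libraries thus lay lowest, by a mean of 0.22 below control. For Psmb10 to Psmb7 the ratio was −0.21 and −0.45 in control, −0.94 and −0.88 in p45-/- and 0.34 and −0.67 in Tcf1-deficient libraries. The p45-/- libraries again lay below both controls, by a mean of 0.58. With the trend on GC content removed from each library, an alternative described with the GC values, this difference was −0.30 and that for Psmb8 to Psmb5 −0.27. For Psmb9 to Psmb6 it was −0.86 and −0.81 in control and −0.75 and −0.78 in p45-/-, so that no shift of the same sign was seen. With 2 libraries against 2, an exact two-sided permutation test cannot go below p = 0.333, which 8 of the 9 comparisons of ratios reached (adjusted p = 0.375).

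**Figure D4:**
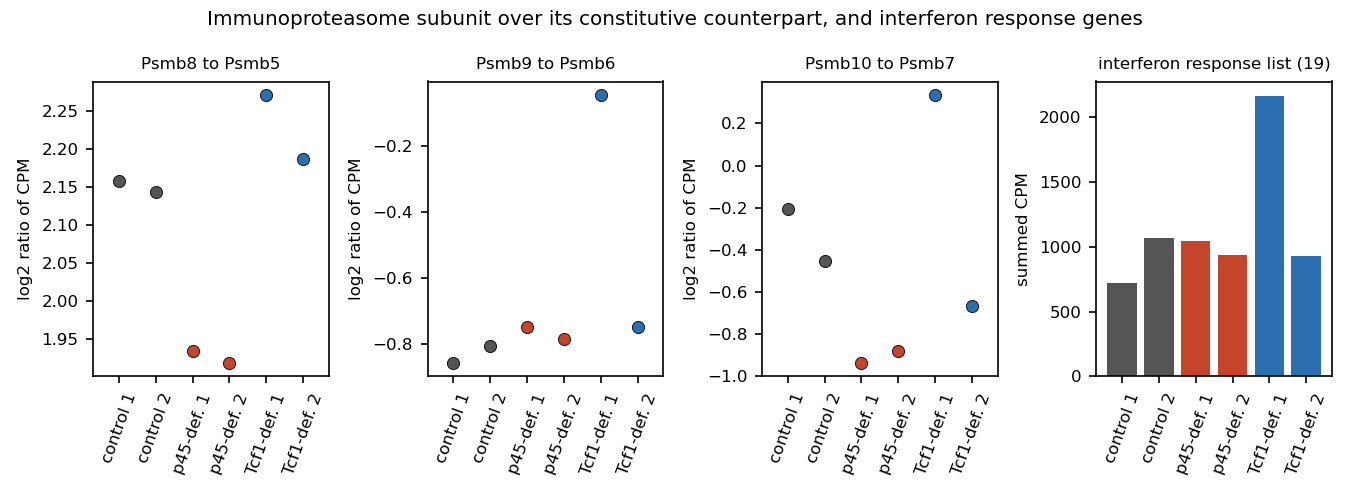
Log2 ratio of each immunoproteasome subunit to its constitutive counterpart in the 6 libraries, on axes that do not start at 0, and the summed CPM of 19 interferon response genes as bars from 0. Tcf1-deficient replicate 1 is highest in all 4 panels, and the p45-/- libraries are lowest for Psmb8 to Psmb5 and Psmb10 to Psmb7.

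In Tcf1-deficient cells, compared with the same 2 control libraries, no proteasome gene passed the test. By edgeR 0 of 50 members were called, and 0% of all tested genes were called higher or lower. Tcf7, which lay below both controls in both Tcf1-deficient libraries, was thus not called either. The lack of a call here does not show that a level was unchanged. At an unadjusted p below 0.05 there were 2 members, Psmb9 and Psme2b, among 1024 genes. DESeq2 called 0 members, where it called 79 of all tested genes higher and 65 lower. The median log2 fold change was 0.08 over the members and 0.01 over all genes. Both Tcf1-deficient libraries lay above both controls in 13 members, where 16.4% of tested genes did, and below both in 1, where 18% did. The summed 26S subunits stood at 4375 and 4418 CPM, against 4086 and 4286 CPM in control. The SEs of the 31 subunits lay between 0.11 and 0.17 on the log2 scale.

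In the main fit the 31 subunits of the 26S particle lay within 0.23 of control on the log2 scale. Over the alternative fits some went further, with ranges of −0.41 to 0.074 for Psmb2 and 0.00077 to 0.37 for Psma3. Psma1 stood at 113 and 139 CPM in Tcf1-deficient libraries, across the control range. Psmb5, Psmb6 and Psmb7 had log2 fold changes of 0.07, 0.07 and −0.03. The genes with the smallest p-values among the 26S subunits were Psma7, Psmd14 and Psmd13, with log2 fold changes of 0.21, 0.21 and 0.23 and adjusted p-values by edgeR between 0.678 and 0.688. Psme4 stood at 91.0 and 84.0 CPM, above both controls, with a log2 fold change of 0.21 and an SE of 0.12 (adjusted p = 0.695 by edgeR). The lowest value was that of Psmg4, at 18.8 and 23.4 CPM (log2 fold change −0.30, adjusted p = 0.704 by edgeR, SE 0.18).

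The Tcf1-deficient libraries differed from each other in the interferon-inducible members. Psmb8 stood at 546 CPM in replicate 1 and 421 CPM in replicate 2, Psmb9 at 143 and 84.8 CPM and Psmb10 at 146 and 89.3 CPM. Of the activator genes Psme1, Psme2 and Psme2b did likewise, with 305 and 221 CPM for Psme1, 171 and 103 CPM for Psme2 and 3.08 and 0.92 CPM for Psme2b. Psme3, at 233 and 258 CPM, did not, and Psme4 differed less, at 91.0 and 84.0 CPM. In each of the 6 genes from Psmb8 to Psme2b replicate 1 lay above all 5 other libraries, and in all but Psme2b replicate 2 lay within or below the range of control and p45-/- libraries. Psmb9 differed from control by 0.55 on the log2 scale (adjusted p = 0.626 by edgeR, SE 0.23) and Psme2 by 0.36 (adjusted p = 0.715 by edgeR, SE 0.23). Without replicate 2 both were called, with 0.88 (adjusted p = 0.00484) and 0.68 (adjusted p = 0.0296), and without replicate 1 neither was. Psme2b had the largest value, 2.01 (SE 0.78, adjusted p = 0.618 by edgeR), from 7 to 70 counts per library.

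Genes known to respond to interferon stood high in the same library. Tap1, the peptide transporter next to Psmb9, was at 331 CPM in replicate 1 and 162 CPM in replicate 2, and Nlrc5, the activator of MHC class I genes, at 289 and 69.1 CPM. The 14 dendritic or myeloid markers summed to 182 and 76.3 CPM in these libraries and to 194 and 123 CPM in control. Of the 13 tested, 11 had a negative log2 fold change against control and 2 a positive one. Cd74, a single marker chosen after its level was seen, stood at 67.4 and 6.82 CPM in the Tcf1-deficient libraries and does not speak for the list. The part of these cells in the levels of Psmb8, Psmb9 and Psmb10 was not tested.

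Tcf1-deficient and p45-/- cells were also compared directly, with the p45-/- libraries that enter the first comparison, so both rest on the same values. By edgeR 10 of 50 members were lower in Tcf1-deficient cells and 0 higher, where 5.36% of tested genes were lower and 5.05% higher. DESeq2 called 15 lower and 0 higher, and edgeR gave 27 members (54%) an unadjusted p below 0.05, where 4030 of all genes (31.1%) had one, and Psme2b was the only member of these that was higher. In 36 members both Tcf1-deficient libraries lay below both p45-/- libraries, as in 33.3% of tested genes, and above both in 1, Psme2b, as in 27.7%. The median log2 fold change was −0.35 over members and −0.01 over all genes. The called members were Psma1, Psma2, Psma4, Psma6, Psmb7, Psmc1, Psmd6, Psmd12, Psme4 and the recombination factor gene Psmc3ip. They came from the alpha ring (4), the beta ring (1), the base (1), the lid (2) and the activators (1), and none was an immunoproteasome gene.

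Psma6 differed most among the 26S subunits, with 244 and 258 CPM in p45-/- and 131 and 177 CPM in Tcf1-deficient libraries (log2 fold change −0.71, adjusted p = 0.0379 by edgeR, SE 0.16). Psme4 differed by −0.70 on the log2 scale (SE 0.12, adjusted p = 0.0187 by edgeR). Psma1 and Psmb7 each differed by −0.68. Psmc3ip stood at 24.1 and 27.4 CPM in p45-/- and 13.7 and 16.6 CPM in Tcf1-deficient libraries (−0.76, SE 0.19, adjusted p = 0.0459 by edgeR). The 3 immunoproteasome genes had a median of 0.00, and Psmb8, Psmb9 and Psmb10 were at −0.06, 0.00 and 0.10. The number of calls was 0 without any one control or p45-/- library and 0 when only these 2 groups were fitted. Leaving out Tcf1-deficient replicate 1 lost most of these calls. Leaving out replicate 2 added others, and not all of them were lower. Psme2b (log2 fold change 2.74) and the immunoproteasome gene Psmb10 (0.40) were then higher in Tcf1-deficient cells. Without replicate 1 Psmb10 was instead at −0.24. All 10 genes were lower in every alternative.

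The size of the p45-/- rise varied among members with the base composition of their transcripts. Across the 50 members the Spearman correlation of the log2 fold change with the GC content of the longest coding transcript was −0.575, and across all genes −0.340. These points share the same 4 libraries. The 2 control libraries differed from each other in the same way, with −0.737 across members and −0.337 across all genes, and so did the Tcf1-deficient libraries, with −0.658 across members. The p45-/- libraries gave 0.307. In an alternative chosen after seeing this, with the trend on GC content removed from each library, 19 members were again called higher, 14 of them as before, and the median was 0.36. The lost calls were Psma2, Psma3, Psmc6, Psmd10 and Psmd12, and the gained calls Psmb3, Psmb4, Psmb5, Psmc3 and Psmd13. The alpha and beta rings then had 5 of 7 calls each, with medians of 0.46 and 0.45, so the gap between the uncorrected medians of 0.60 and 0.44 was not seen. Within the rings, however, the correlation with GC content changed sign. It went from −0.46 to 0.82 in the alpha ring and from −0.21 to 0.61 in the beta ring. The correction thus turned the trend inside these rings and did not remove it. Psme4 stayed called at 0.68 (adjusted p = 0.0200 by edgeR). Between Tcf1-deficient and p45-/- cells 9 members were then called lower, 5 of the 10 as before. The lost calls were Psma2, Psma4, Psmd6, Psme4 (−0.51, adjusted p = 0.0536 by edgeR) and Psmc3ip, and the gained calls Psmb3, Psmb5, Psmb6 and Psmc4.

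**Figure D5:**
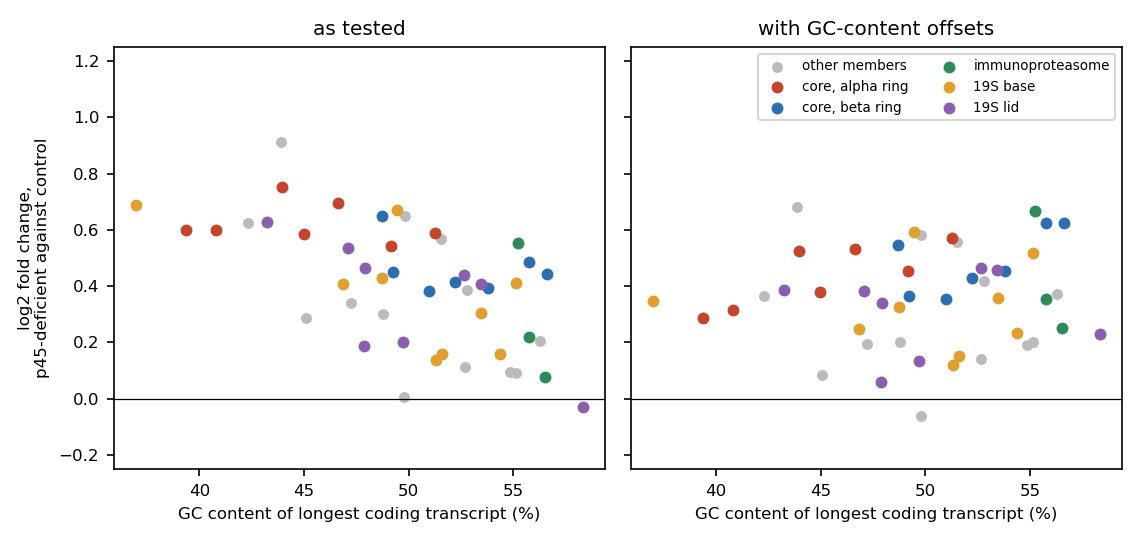
Log2 fold change of p45-/- against control for 47 members (Psme2b, Psma8 and Psmb11 left out) against the GC content of the longest coding transcript, as tested (left) and with the GC trend of each library removed (right). The downward slope of the left panel is absent on the right, where the correlation over all 50 members is 0.06, and the points still lie mostly above 0.

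Upstream sequence was read for 42 members, with 45 windows of the 250 bases before the start of the gene, from RefSeq on GRCm38.p6. Because the members rose together, the windows were searched on both strands for short motifs of factors tied to proteasome genes, to interferon or to Tcf1. The ETS core CCGGAAG stood in 14 of 45 windows (31.1%), and in 6.91% of all 32851 windows of the same length. The CCAAT box CCAAT stood in 33.3% of member windows and 33.8% of all windows, and the GC box GGGCGGG in 35.6% and 23.4%. The element of the NRF family, TGACNNNGC, stood in 11.1% and 10.2%, the interferon-stimulated element, GAAA repeated after 2 further bases, in 6.67% and 2.98% and the STAT element TTCNNNGAA in 4.44% and 7.02%. A TCF/LEF motif, CTTTG followed by any pair of A or T, stood in 1 member window, that of Psmd10, or 2.22%, and in 14.8% of all windows. The ETS core stood in 8 of the 18 matched members that rose and 5 of the 24 that were not called. The CCAAT box stood in 9 and 6 of these, and the NRF element in 3 and 2. The ETS core, the GC box and the other motifs can share bases in these GC-rich windows, and a match is a run of letters, not a measured site. The shares over all windows were not limited to tested genes, whereas all members were tested. A share among tested genes was not computed, so the gaps may not be particular to proteasome genes. A start of a GENCODE coding transcript was found for 39 of the 45 member windows.

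Windows of 4 members that rose and of Psmb8, which was not called, are printed as chosen examples. Each is written 5′ to 3′ on the strand of the gene in GRCm38.p6. Matches did not sort cleanly with the calls. Psma5, which rose, has no match to any of the motifs. Psmd4 and Psme3, which were not called, have both a CCAAT box and an ETS core. Capitals mark matches to the NRF element, the CCAAT box and the ETS core on either strand. Psma1 carries the CCAAT box on both strands, Psmc1 a CCAAT box and an ETS core, Psmc6 an NRF element and an ETS core and Psme4 an ETS core. The window of Psmb8 has none of the 3, but holds 1 match to the STAT element, which is not marked.
Psma1, chr7:114276117-114276366, minus strand: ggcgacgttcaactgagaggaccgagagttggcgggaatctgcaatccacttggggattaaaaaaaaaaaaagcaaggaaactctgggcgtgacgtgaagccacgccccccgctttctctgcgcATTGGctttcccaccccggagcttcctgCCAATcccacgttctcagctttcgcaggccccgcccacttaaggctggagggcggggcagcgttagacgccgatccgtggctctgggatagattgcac
Psmc1, chr12:100109952-100110201, plus strand: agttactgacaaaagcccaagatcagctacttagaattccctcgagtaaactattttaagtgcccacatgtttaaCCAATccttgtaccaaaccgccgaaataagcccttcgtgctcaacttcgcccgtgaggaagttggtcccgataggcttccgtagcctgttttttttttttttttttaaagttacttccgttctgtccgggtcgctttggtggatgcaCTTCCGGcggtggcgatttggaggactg
Psmc6, chr14:45329574-45329823, plus strand: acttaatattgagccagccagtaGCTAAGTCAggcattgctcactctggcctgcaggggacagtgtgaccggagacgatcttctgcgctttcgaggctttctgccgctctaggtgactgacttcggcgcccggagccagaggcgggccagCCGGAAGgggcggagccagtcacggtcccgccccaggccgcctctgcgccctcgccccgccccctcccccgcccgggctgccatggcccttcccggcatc
Psme4, chr11:30771525-30771774, plus strand: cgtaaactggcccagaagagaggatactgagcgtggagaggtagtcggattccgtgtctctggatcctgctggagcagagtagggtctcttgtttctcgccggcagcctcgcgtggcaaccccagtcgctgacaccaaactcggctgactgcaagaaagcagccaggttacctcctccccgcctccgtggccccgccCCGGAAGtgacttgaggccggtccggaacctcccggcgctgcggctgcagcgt
Psmb8, chr17:34197945-34198194, plus strand: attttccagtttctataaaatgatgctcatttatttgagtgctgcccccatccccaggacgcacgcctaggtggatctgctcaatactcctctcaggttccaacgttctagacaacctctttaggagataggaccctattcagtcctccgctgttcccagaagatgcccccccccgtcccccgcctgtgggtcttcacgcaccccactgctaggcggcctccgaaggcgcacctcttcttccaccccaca

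Genes that work with the proteasome but carry other names were followed in a list of 27, set with earlier results known. In p45-/- cells 3 of the 27 rose and 0 fell by edgeR, where 8.47% of all tested genes were higher and 7.55% lower. The count of 3 is thus near the share of all genes. DESeq2 called 3 higher and 2 lower, and the median log2 fold change was 0.06. Shfm1, which encodes the small lid subunit Sem1, went from 95.7 and 97.6 CPM to 158 and 165 CPM (log2 fold change 0.74, adjusted p = 0.0265 by edgeR). Pomp, the maturation protein of the core, went from 86.2 and 104 CPM to 143 and 151 CPM (0.63, adjusted p = 0.0200 by edgeR). Txnl1, a thioredoxin-like protein bound to the 19S particle, rose by 0.57 on the log2 scale. Adrm1, a ubiquitin receptor of the particle, stood at 131 and 126 CPM in control and 126 and 129 CPM in p45-/- libraries. Nfe2l1, the factor that raises subunit genes when the proteasome is inhibited, stood at 113 and 117 CPM in control, 99.2 and 97.4 CPM in p45-/- and 132 and 126 CPM in Tcf1-deficient libraries. Its log2 fold change in p45-/- cells was −0.22 (SE 0.11, adjusted p = 0.192 by edgeR).

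Antigen processing genes downstream of the proteasome were mixed. Of 12 listed genes 3 rose in p45-/- cells, namely B2m, the light chain of MHC class I (0.95 on the log2 scale), and the folding factors Pdia3 (0.69) and Canx (0.45). The transporter gene Tap1 stood at 147 and 157 CPM in control and 169 and 162 CPM in p45-/- libraries, and Tap2 at 376 and 374 CPM against 401 and 397 CPM. Of the 19 interferon response genes 1 rose, Ifit2. Among all tested genes 8.47% were called higher in this comparison. In Tcf1-deficient cells against control 0 genes of these 3 lists were called by edgeR, and DESeq2 called 3 interferon response genes higher. Against p45-/- cells edgeR called 2 of the 12 antigen processing genes lower, Pdia3 (−0.57) and Canx (−0.49). It also called 1 of the 27 proteasome partners lower and 0 interferon response genes, where 5.36% of tested genes were lower.

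Other gene lists also differed between libraries, and not always by genotype. The 24 cell cycle genes summed to 6291 and 5720 CPM in control, 9186 and 9805 CPM in p45-/- and 5308 and 6924 CPM in Tcf1-deficient libraries, and 15 of them rose in p45-/- cells by edgeR. Immediate-early genes, which respond quickly to outside signals, summed to 898 and 3798 CPM in control, 608 and 583 CPM in p45-/- and 3177 and 3888 CPM in Tcf1-deficient libraries. Natural killer markers summed to 150 and 179 CPM in control, 837 and 826 CPM in p45-/- and 301 and 365 CPM in Tcf1-deficient libraries. These sums do not speak for each gene. Of 7 tested markers 1 was called higher in p45-/- cells by edgeR, with a median log2 fold change of 0.37 and 2 negative values. Between Tcf1-deficient and p45-/- cells 6 of the 7 were positive and 1 negative, with a median of 1.36. There edgeR called 1 higher and 1 lower. Of the 10 DN3 markers 3 were called lower in Tcf1-deficient than in p45-/- cells by edgeR, and 0 higher. The B-cell markers summed to 14.5 to 37.2 CPM over all libraries. The dendritic or myeloid markers summed to 96.8 and 104 CPM in p45-/- against 194 and 123 CPM in control. Their part in the levels of the proteasome genes was not tested. Erythroid markers stayed at or below 2.51 CPM, with the globin genes Hba-a1 and Hbb-b1 at 0. The 10 listed thymic epithelium markers, Psmb11 among them, summed to 71.3 to 117 CPM over the libraries. Of the 6 tested, 1 was called higher in p45-/- cells by edgeR and 0 lower. Foxn1, which defines thymic epithelium, stood at or below 0.05 CPM. Which cells gave the few counts of Psmb11 was not tested.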

How the data were processed

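The 6 libraries hold RNA of sorted DN3 cells, 2 for each of 3 genotypes. The authors deposited raw read counts for each gene symbol, in whole numbers. TopHat2, featureCounts 1.5.0-p3 and DESeq2 3.4 appear in the submitters' processing notes, with mm9 as the build. Annotation and strandedness were not given in the sources used here. Overlapping genes and near copies may share reads. The members, gene lists and tests were chosen with earlier results of these data known.

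The test was edgeR 4.0.16 (R 4.3.3) over all genes that pass filterByExpr, with TMM scaling, 1 mean per genotype and robust quasi-likelihood F tests (two-sided, 3 residual degrees of freedom). Benjamini-Hochberg adjustment ran over all tested genes in a comparison, at 0.05. SEs come from the F statistic. The fit was run on simulated counts drawn with its own estimates of spread, equal in all genotypes. The spread of the real libraries differs by genotype, so that run checks the code and not the calls. DESeq2 1.42.0, other scalings, no filter, a fit of 2 groups, a replicate block and fits without each library were alternatives. GC content and length come from the longest coding transcript of GENCODE on GRCm38, another build than that of the counts, and matched all 50 members. Promoter windows are RefSeq's. Libraries of 1 group differed beyond sampling noise, and unequally. The chi-square per degree of freedom was 38.7 in control, 9.79 in p45-/- and 73.1 in Tcf1-deficient libraries. The fit nevertheless shares its estimate of spread over the genotypes, so SEs do not reflect this inequality. Each library was used as a replicate, and this spread may be technical. Named with fold changes are called members, the 6 smallest p-values and the extremes of each comparison, and Psmb5 to Psmb10, Psme1 to Psme4 and Psmf1. From other lists, called genes and a few fixed ones are named. Levels of Psmd1, Psmd2, Psmd3, Psmd4, Psmd11, Psmg2, Nlrc5 and Cd74 were chosen after they were seen. Results for some genes are not reported here.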

Additional observations from a re-analysis of the deposited data

How the results depend on the processing

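Each of the 6 libraries was left out in turn, 8 other settings were tried, and members that overlap another gene were dropped. GC correction and this last step were chosen after seeing the data. Depth limits Psme2b, Psma8 and Psmb11, which hold at most 70 counts in a library, and the number of libraries limits all members. For p45-/- against control the members called numbered 25 with DESeq2, 11 with library totals, 13 with upper-quartile scaling, 13 with DESeq2 size factors in edgeR, 15 with no filter, 29 with only these 2 groups, 19 with GC correction, 17 without overlapping genes and 0 to 32 without single libraries. The median log2 fold change of the members, 0.41, was 0.37 with DESeq2, 0.31 with library totals, 0.34 with upper quartile, 0.37 with DESeq2 size factors, 0.36 with no filter, 0.36 with 2 groups, 0.36 with GC correction and 0.35 to 0.46 without single libraries. For Tcf1-deficient against control 0 were called in all settings but 1, with 0 to 2 without single libraries. The median, 0.08, was 0.031 with library totals, 0.043 with upper quartile and 0.058 to 0.14 without single libraries.

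For Tcf1-deficient against p45-/- the 10 calls became 15 with DESeq2, 3 with library totals, 6 with upper quartile, 5 with DESeq2 size factors, 8 with no filter, 0 with only these 2 groups, 9 with GC correction (5 of the 10 among them), 7 without overlapping genes and 0 to 20 without single libraries. The median, −0.35, was −0.32 with DESeq2, −0.29 with library totals, −0.31 with upper quartile, −0.31 with DESeq2 size factors, −0.30 with no filter, −0.32 with 2 groups, −0.28 with GC correction and −0.38 to −0.30 without single libraries. Fewer libraries leave fewer degrees of freedom, and the lone library of a group is then assumed to vary like the others. The cause of the other shifts was not tested. A fit with the replicate number as a block called 14, 0 and 4 members in the 3 comparisons. Same-numbered libraries did not deviate together (correlations −0.014, −0.050 and −0.029), so the numbers do not show a pairing.

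The differences in the ratios of immunoproteasome to constitutive subunits kept within the spread between libraries with raw counts in place of CPM. With GC correction, added here after seeing the data, those in p45-/- cells became −0.27 for Psmb8 to Psmb5 and −0.30 for Psmb10 to Psmb7. Without single libraries they ranged from −0.23 to −0.22 for Psmb8 to Psmb5, 0.040 to 0.091 for Psmb9 to Psmb6 and −0.70 to −0.46 for Psmb10 to Psmb7 in p45-/- cells. In Tcf1-deficient cells they ranged from 0.037 to 0.12, 0.084 to 0.79 and −0.34 to 0.67.

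Among the 88 results with a named fold change, direction changed in 44 values of 18 results, and none of those values was called. Over all 50 members in the 3 comparisons 100 values turned, none of them called before or after. With GC correction these included members given by level only, such as Psmd3 in p45-/- against control, from −0.03 to 0.23. The cause was not tested. In p45-/- against control, Psme3 turned to −0.038 with DESeq2, −0.099 with library totals, −0.070 with upper quartile, −0.038 with DESeq2 size factors, −0.048 with no filter, −0.044 with 2 groups and −0.060 with GC correction. Psmb10 turned to −0.031 with library totals and −0.0016 with upper quartile, and Psme1 to −0.0086 with library totals. In Tcf1-deficient against p45-/-, Psme2 turned to 0.011 with DESeq2, 0.032 with library totals, 0.016 with upper quartile, 0.014 with DESeq2 size factors, 0.025 with no filter and 0.0017 with 2 groups. Psmb9 turned to −0.031 with the replicate block and −0.098 with GC correction, and Psmb10 to −0.058 with GC correction.

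The other changes of direction among the named fold changes came without single libraries. In p45-/- against control the values then ranged from −0.058 to 0.041 for Psme3, −0.023 to 0.13 for Psme1 and −0.91 to 0.45 for Psme2b. In Tcf1-deficient against control they ranged from −0.080 to 0.20 for Psmb5, −0.20 to 0.11 for Psmb7, −0.043 to 0.32 for Psmb8, −0.22 to 0.48 for Psmb10, −0.048 to 0.68 for Psme2, −0.034 to 0.12 for Psme3, −0.14 to 0.055 for Canx and −0.0012 to 0.24 for Txnl1. In Tcf1-deficient against p45-/- they ranged from −0.21 to 0.10 for Psmb8, −0.37 to 0.32 for Psmb9, −0.24 to 0.40 for Psmb10, −0.012 to 0.38 for Psme1, −0.38 to 0.29 for Psme2 and −0.046 to 0.17 for Psme3.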
